A study of Mus musculus with 12 samples.

Results

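The enzymes that hydroxylate and crosslink collagen were described by 10 genes of the 21965 in a gene count table of mouse gingiva. The genes were Lox and Loxl1 to Loxl4, the lysyl oxidases, P4ha1 to P4ha3, the alpha subunits of collagen prolyl 4-hydroxylase, and Plod1 and Plod2, which are lysyl hydroxylases. They were taken by gene symbol, after Ensembl identifiers were matched to GENCODE mouse release M21. All 10 were present, and all 10 passed the filter on low counts.

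Collagen is modified in 2 places. Inside the cell, prolyl 4-hydroxylases add hydroxyl groups to prolines, which stabilise the collagen helix, and lysyl hydroxylases add them to lysines. Outside the cell, the lysyl oxidases, which carry copper, convert lysines and hydroxylysines of collagen and elastin into reactive aldehydes from which crosslinks form. The hydroxylases need iron, 2-oxoglutarate and ascorbate. Gingival connective tissue is rich in fibrillar collagen, which is renewed quickly.

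RNA was measured in 12 libraries of gingiva, 3 in each of 4 groups, with 3 mice per group matched for age and sex. WT mice were C57BL/6 by the labels and C57BL/6J by the methods, and CybbKO mice, labelled Cybb-/-, lacked a working Cybb, the gene for the catalytic subunit of the phagocyte NADPH oxidase Nox2, in all cells. The knockout was not limited to a cell type. By the methods WT mice were bought from a vendor and CybbKO mice came from another laboratory, so genotype and source of the mice cannot be told apart. Naive groups had no ligature. Ligated groups had a silk ligature around a maxillary molar, where bacteria collect and inflame the gum, and the gingiva around it was taken after 8 days. Mice of all groups were under 12 weeks old by the labels, which place the ligature on the right, whereas the study's legends place it on the left.

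The authors' counts summed to between 27958819 and 42613423 reads per library. Levels are given as CPM, counts scaled to library size with edgeR's TMM factors. A gene is named as called where the adjusted p of edgeR's quasi-likelihood F test, over 15046 genes in a joint fit of the 12 libraries, was under 0.05. For a single gene, an exact permutation test (two-sided) of 3 libraries against 3 has a smallest possible p of 0.1. Cybb went against its label, with 47.9 ± 7.56 CPM (SD, n = 3) in the naive libraries labelled CybbKO and 5.06 ± 0.758 CPM in those labelled WT. In the ligated libraries it ran from 51.1 to 63.7 CPM in those labelled CybbKO and from 8.41 to 15.2 CPM in those labelled WT, so directions between genotypes are given for the libraries as labelled. In ligated tissue all 9 neutrophil markers were higher in the libraries labelled CybbKO (median log2 difference 1.33), with 7 at an unadjusted edgeR p under 0.05, beside 3.34% of tested genes, and 0 called. The 10 markers chosen for oral epithelium were high in every library, with a summed level between 64987 and 130073 CPM. Gland markers summed to 29254 CPM in naive WT replicate 3 and to at most 5065 CPM in every other library.

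Most of the enzyme genes were higher in ligated than in naive gingiva. Lox, Loxl2 and P4ha3 were called higher in ligated WT tissue, and Lox, Loxl1, Loxl2, Loxl3, P4ha3, Plod1 and Plod2 in ligated CybbKO tissue. P4ha1 and P4ha2 stayed under 1.3-fold in both genotypes and were not called. The 3 of 10 called higher in WT stand against 2.31% of all tested genes, and the 7 of 10 in CybbKO against 9.95%. Averaged over both genotypes the same count of 7 was called, beside 14.7%. No member was called lower, as were 0.884% of tested genes in WT and 3.04% in CybbKO. All 10 log2 fold changes were above 0 in each genotype, beside 46.7% and 46.2% of tested genes. The median log2 fold change of the 10 was 1.12 in WT and 1.87 in CybbKO, beside -0.03 over all tested genes in each. In WT, 6 members lay higher in all ligated than in all naive libraries (13.3% of tested genes did so), and in CybbKO 8 did (18.5%). The tissue was sequenced in bulk, so a change in the number of cells that make these enzymes and a change in RNA per cell cannot be told apart.

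**Figure D1:**
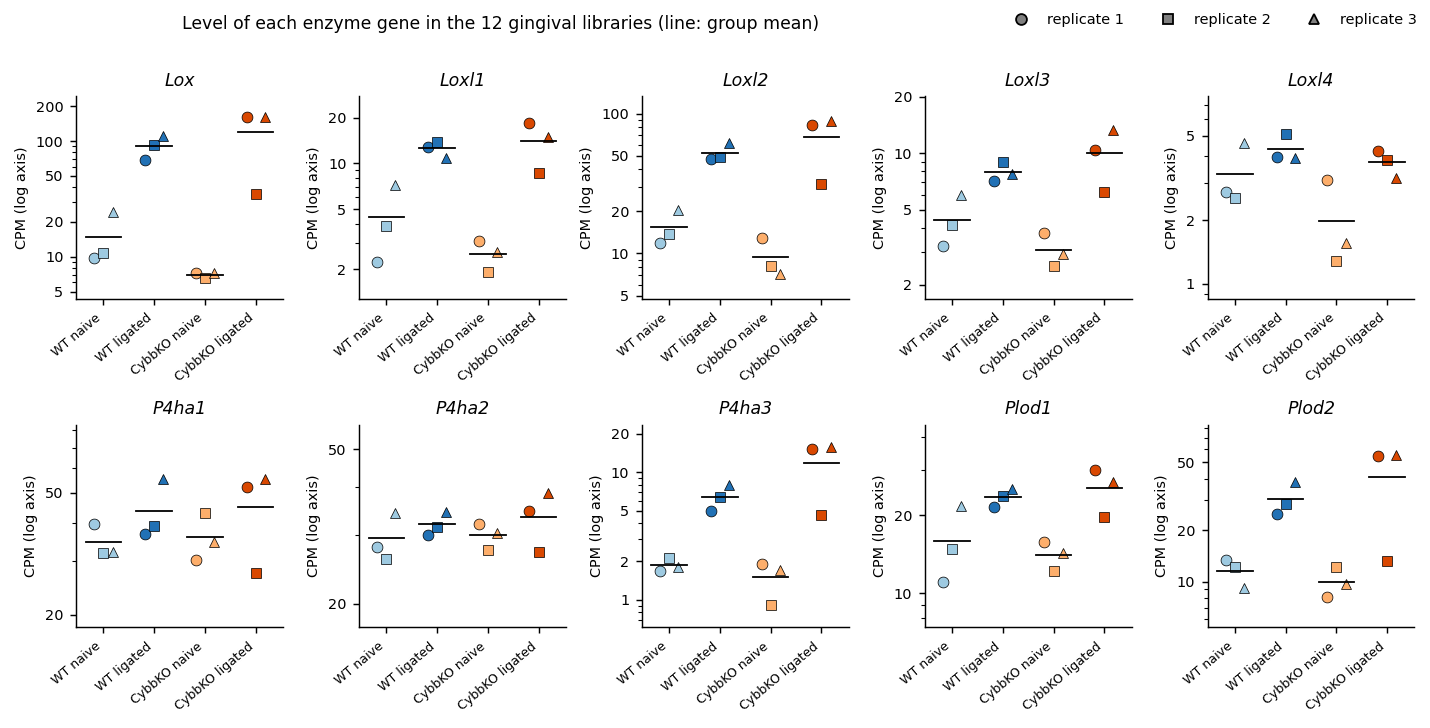
Level of each of the 10 enzyme genes in every library, in CPM on a log axis, by group. Each point is 1 library, its shape the replicate number, and the line is the group mean. Lox, Loxl1, Loxl2, Loxl3 and P4ha3 show ligated libraries above all naive ones, P4ha1 and P4ha2 overlap throughout, and ligated CybbKO replicate 2 is the lowest of its group for 9 of 10 genes.

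Lox, the founding lysyl oxidase, lies on the minus strand of chromosome 18 of GRCm38, from 52516067 to 52529867. In naive WT gingiva it had 9.75, 10.8 and 24.1 CPM, and in ligated WT gingiva 68.3, 91.8 and 111 CPM. In naive CybbKO tissue it had 7.24, 6.49 and 7.26 CPM, and in ligated CybbKO tissue 162, 35.2 and 161 CPM. Every ligated library was above every naive one, and the second ligated CybbKO replicate stood far below the other two. The rise was 6.09-fold in WT (log2 2.61, SE 0.51, edgeR adjusted p = 0.0248) and 17.04-fold in CybbKO (log2 4.09, SE 0.55, edgeR adjusted p = 0.00207). Averaged over both genotypes it was 10.2-fold, and the 6 ligated and 6 naive libraries did not overlap (exact two-sided permutation p = 0.00216, the smallest that 6 against 6 allows). Across both genotypes, 5 members were without overlap in this way, beside 6.73% of tested genes.

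Loxl2, a lysyl oxidase with scavenger receptor domains that acts on basement membrane collagen, lies on the plus strand of chromosome 14 from 69609068 to 69695834. Its levels were 11.8, 13.8 and 20.6 CPM in naive WT and 47.5, 48.7 and 61.5 CPM in ligated WT libraries. In CybbKO they were 12.9, 8.16 and 7.11 CPM without and 83.5, 31.4 and 88.4 CPM with ligature. The groups were apart in both genotypes. The fold was 3.41 in WT (log2 1.77, SE 0.37, edgeR adjusted p = 0.0282) and 7.21 in CybbKO (log2 2.85, SE 0.38, edgeR adjusted p = 0.00207). The count of Loxl2 is uncertain, because 45.8% of the 36-base windows of its transcripts also occur in other genes, most of them in the unprocessed pseudogene Gm21451, which had no row in the table. No enzyme gene shared such a window with another one.

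Loxl1, which crosslinks elastin, and Loxl3 passed in CybbKO and not in WT. Loxl1 (chromosome 9, minus strand, 58287738 to 58313186) had 2.22, 3.86 and 7.18 CPM in naive and 12.9, 13.9 and 10.8 CPM in ligated WT tissue. Its naive CybbKO values were 3.09, 1.91 and 2.59 CPM, and its ligated ones 18.5, 8.64 and 14.9 CPM. The ligated libraries were higher in both genotypes without overlap, yet the 2.85-fold rise in WT did not pass (edgeR adjusted p = 0.0587), while the 5.53-fold rise in CybbKO did (edgeR adjusted p = 0.00342). Loxl3 (chromosome 6, plus strand, 83034173 to 83052562) ran from 2.52 to 5.98 CPM in naive and from 6.21 to 13.4 CPM in ligated libraries. It changed 3.25-fold in CybbKO (log2 1.70, SE 0.31, edgeR adjusted p = 0.0054), and its 1.80-fold in WT was not called (edgeR adjusted p = 0.146). Exons of Loxl3 overlap those of Htra2 on the other strand, and the counting was stated to use strand. That Loxl1 and Loxl3 passed in 1 genotype does not show a difference between genotypes, which the interaction tests.

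Loxl4 (chromosome 19, minus strand, 42593982 to 42612813) had the smallest fold changes of its family and was called in neither genotype. Its levels were low, from 2.53 to 4.63 CPM in naive and from 3.92 to 5.10 CPM in ligated WT libraries, with overlap. In CybbKO it ran from 1.28 to 3.09 CPM in naive and from 3.17 to 4.23 CPM in ligated libraries, without overlap. Its fold was 1.32 in WT (edgeR adjusted p = 0.558) and 1.89 in CybbKO (edgeR adjusted p = 0.105). Averaged over both genotypes it missed the threshold in edgeR (adjusted p = 0.0679) and passed it in DESeq2 (adjusted p = 0.0369).

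**Figure D2:**
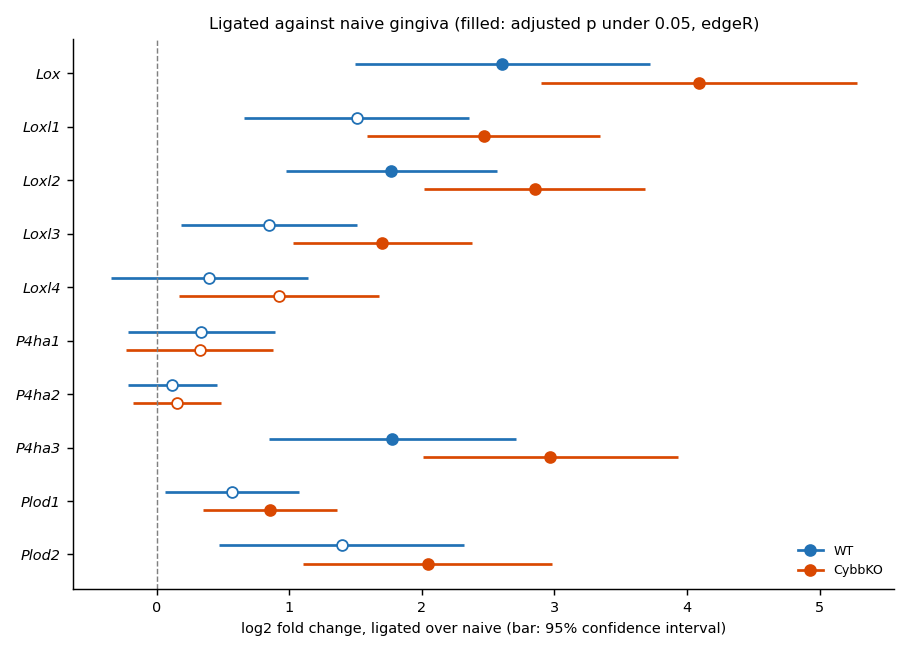
Log2 fold change of each enzyme gene between ligated and naive gingiva on the horizontal axis, in WT (blue) and CybbKO (orange), with 95% confidence intervals from edgeR. Filled points passed an adjusted p of 0.05, which 3 genes did in WT and 7 in CybbKO, and the points of P4ha1 and P4ha2 lie close to 0.

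Within the lysyl oxidases, the family composition moved toward Lox. Levels of different genes were compared per kilobase of exon, with the length taken over the union of a gene's exons. In naive WT tissue Lox made up 33.5 ± 3.78% (SD, n = 3) and Loxl2 32.5 ± 3.65% of the summed CPM per kilobase of the 5 genes. In ligated WT tissue the share of Lox was 53.3 ± 4.51% and that of Loxl2 27.7 ± 2.27%. CybbKO libraries went from 29.4 ± 4.98% to 52.3 ± 9.96% for Lox. The lowest ligated share of Lox, 40.8%, was above the highest naive share, 37.6%, and with the length of the longest transcript in its place these were 40.1% and 36.8%. The shares of Loxl3 and Loxl4 were smaller in ligated tissue, at 4.97% and 2.96% in WT against 10.9% and 8.84% in naive WT. The summed level of the family was 9.06 ± 3.84 CPM per kilobase in naive and 35.2 ± 5.57 in ligated WT, and 5.11 ± 1.13 and 44.8 ± 23.2 in CybbKO. These shares are descriptions and were not tested, and each depends on the uncertain count of Loxl2.

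**Figure D3:**
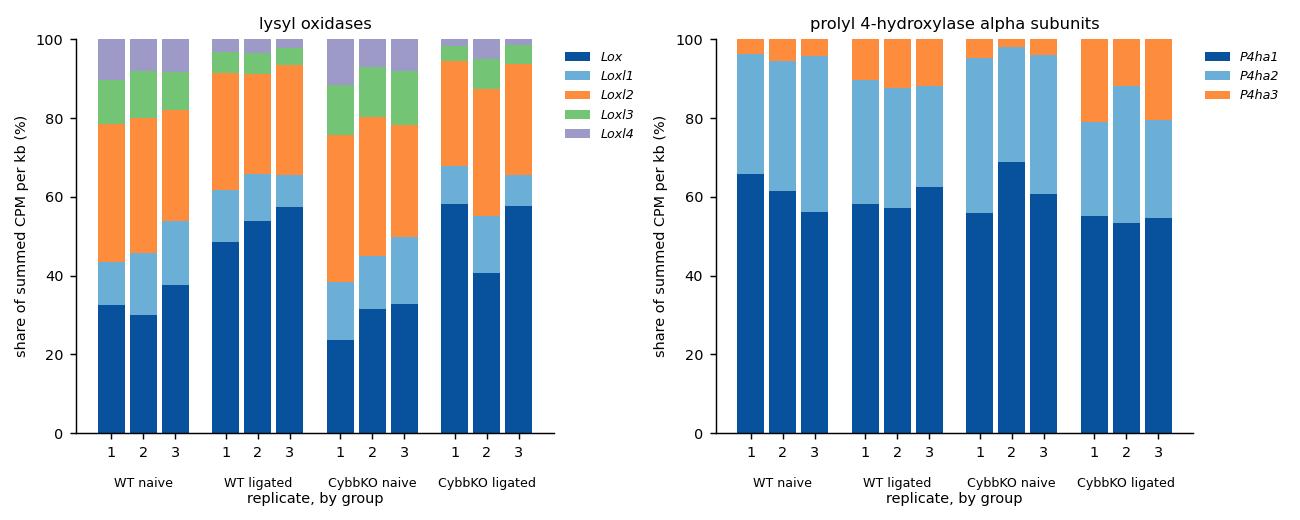
Share of each gene in the summed CPM per kilobase of its family (vertical axis, percent), as 1 stacked bar per library, for the 5 lysyl oxidases (left) and the 3 prolyl 4-hydroxylase alpha subunits (right). The share of Lox lies between 40.8% and 58.2% in ligated and between 23.7% and 37.6% in naive libraries, and the share of P4ha3 between 10.4% and 20.9% against 1.93% and 5.35%.

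The prolyl 4-hydroxylase alpha subunits, which bind the peptide and hold the catalytic site, did not move as 1 group: P4ha3 was called in both genotypes and P4ha1 and P4ha2 in neither. The WT call of P4ha3 was lost in most fits that left out 1 library and with the replicate number as a block. P4ha1, the widely expressed form, and P4ha2 were the abundant ones per kilobase, and P4ha3 the scarce one. The 250 bases of each gene's RefSeq promoter upstream of the RefSeq start (GRCm38.p6) are shown here. RefSeq windows were at hand for 5 of the 10 genes, and these 3 were chosen as 1 family after their calls were known. Capitals mark the core motif of the hypoxia response element, searched as ACGTG or GCGTG on both strands (CACGT or CACGC on the other).
P4ha1: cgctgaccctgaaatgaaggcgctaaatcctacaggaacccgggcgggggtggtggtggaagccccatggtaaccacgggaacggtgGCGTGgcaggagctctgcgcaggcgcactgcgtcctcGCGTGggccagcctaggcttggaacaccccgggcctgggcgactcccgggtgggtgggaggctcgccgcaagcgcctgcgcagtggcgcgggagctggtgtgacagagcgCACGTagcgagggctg
P4ha2: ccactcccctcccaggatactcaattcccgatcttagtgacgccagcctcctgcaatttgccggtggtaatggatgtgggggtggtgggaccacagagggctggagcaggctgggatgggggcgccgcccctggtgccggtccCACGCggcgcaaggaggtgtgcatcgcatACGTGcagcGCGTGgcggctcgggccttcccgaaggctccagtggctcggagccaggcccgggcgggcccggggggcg
P4ha3: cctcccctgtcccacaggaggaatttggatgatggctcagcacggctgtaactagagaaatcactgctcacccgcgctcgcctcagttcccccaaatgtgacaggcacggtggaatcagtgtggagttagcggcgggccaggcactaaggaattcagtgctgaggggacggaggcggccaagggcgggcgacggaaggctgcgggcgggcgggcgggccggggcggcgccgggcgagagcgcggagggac
The windows lie on the plus strand at chr10:59323046-59323295, chr11:54100674-54100923 and chr7:100285270-100285519, and none holds a base of an annotated GENCODE exon. The P4ha2 window lies inside the gene as annotated by GENCODE, which starts at 54100095, while the other windows end right before the annotated start. The motif count of P4ha2 is therefore for a different stretch relative to the annotated gene. P4ha1 and P4ha2 each held 3 core motifs, of which 1 was ACGTG, and P4ha3 held 0. Plod1 and Loxl4, the other genes with a window, held 1 each. Of 32851 promoter windows of this length 38.6% held at least 1 core motif and 6.58% held 3 or more. A match is a run of letters and no shown binding site, and its absence says nothing of the factor. Of 13 genes known as targets of HIF-1, the hypoxia factor, 1 was called higher in WT and 2 in CybbKO, beside 2.31% and 9.95% of tested genes. These were Bnip3, of mitochondrial clearance (log2 1.20 and 1.18), in both, and Slc2a1, a glucose transporter (log2 1.03), in CybbKO. On average over both genotypes 8 of the 13 were called higher, beside 14.7%, and 13 in WT and 12 in CybbKO had a log2 fold change above 0, beside 46.7% and 46.2%. At an unadjusted edgeR p under 0.05 there were 8 in WT and 9 in CybbKO, beside 19.9% and 27.7% of tested genes, and DESeq2 called 2 and 5, beside 5.66% and 11.7% called higher. Ldha, Pgk1 and Ndrg1, the highest of the list in mean CPM, had log2 values from 0.09 to 0.51 and were not called in either genotype alone.

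P4ha3 (chromosome 7, plus strand, 100285520 to 100319699) had 1.68, 2.12 and 1.82 CPM in naive WT libraries and 5.003, 6.36 and 7.94 CPM in ligated ones. Its CybbKO values were 1.90, 0.916 and 1.71 CPM in naive and 15.1, 4.63 and 15.7 CPM in ligated tissue. No ligated library overlapped a naive one. The change was 3.43-fold in WT (log2 1.78, SE 0.43, edgeR adjusted p = 0.0469) and 7.82-fold in CybbKO (log2 2.97, SE 0.44, edgeR adjusted p = 0.00255). Per kilobase, P4ha3 held 4.39 ± 0.871% of the 3 subunits in naive WT and 11.5 ± 0.948% in ligated WT tissue. In CybbKO its share was 3.50 ± 1.41% in naive and 17.7 ± 5.07% in ligated tissue.

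P4ha1 (chromosome 10, plus strand, 59323296 to 59373304) had 39.6, 31.9 and 32.2 CPM in naive WT and 36.6, 39.0 and 55.5 CPM in ligated WT tissue. In CybbKO it had 30.1, 42.9 and 34.6 CPM in naive and 52.4, 27.4 and 55.4 CPM in ligated libraries. The groups overlapped in both genotypes. Its log2 fold change was 0.34 in WT (95% interval -0.22 to 0.89) and 0.33 in CybbKO (-0.23 to 0.88). P4ha2 (chromosome 11, plus strand, 54100095 to 54131665) was the steadiest of the 10, between 26.1 and 38.5 CPM over all 12 libraries. Its log2 fold change was 0.12 (-0.21 to 0.45) in WT and 0.16 (-0.18 to 0.49) in CybbKO, so the upper bounds lie below a 1.5-fold rise. P4hb, the protein disulfide isomerase that serves as the beta subunit of all 3 forms, had 1056 CPM on average and log2 fold changes of -0.21 in WT and -0.05 in CybbKO, not called.

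Plod2 hydroxylates the telopeptide lysines that give the stable collagen crosslinks. It lies on the plus strand of chromosome 9 from 92542223 to 92608428. It had 13.5, 12.2 and 9.11 CPM in naive WT and 24.8, 28.4 and 38.5 CPM in ligated WT libraries. Its naive CybbKO levels were 8.08, 12.1 and 9.67 CPM, and the ligated ones 54.4, 13.1 and 55.5 CPM. Ligated CybbKO replicate 2 lay within the range of the naive WT libraries. The rise was 4.12-fold in CybbKO (log2 2.04, SE 0.43, edgeR adjusted p = 0.0107), and the 2.63-fold in WT, without overlap, did not pass (edgeR adjusted p = 0.0926). In DESeq2 Loxl1 and Plod2 were called in WT as well, which made 5 of 10 beside 5.66% of genes called higher, and 7 of 10 were called in CybbKO, beside 11.7%.

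Plod1 (chromosome 4, minus strand, 147909753 to 147936767), which hydroxylates lysines in the helix, changed least among the called genes. It had 11.1, 14.8 and 21.7 CPM in naive and 21.6, 23.8 and 25.1 CPM in ligated WT tissue, and 15.8, 12.2 and 14.3 CPM against 29.8, 19.7 and 26.9 CPM in CybbKO. The WT groups overlapped slightly and the CybbKO groups did not. The fold was 1.81 in CybbKO (log2 0.85, SE 0.23, edgeR adjusted p = 0.032) and 1.48 in WT (edgeR adjusted p = 0.194). Plod3, the remaining lysyl hydroxylase, which also glycosylates collagen, had log2 fold changes of 0.19 and 0.27 and was not called. Per kilobase, Plod3 was the leading form of the family in naive WT (48.8 ± 2.71%), and Plod2 reached 39.9 ± 4.25% beside 35.3 ± 3.03% for Plod3 in ligated WT tissue. In CybbKO Plod3 made up 54.1 ± 4.17% in naive tissue, and Plod2 went from 21.7 ± 5.74% to 41.3 ± 14.5% with ligature. Plod2 was above Plod3 in ligated CybbKO replicates 1 and 3, and below it in replicate 2, at 24.7% beside 45.7%.

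The order of the 10 genes by mean level per kilobase was not the same in naive and ligated tissue. In naive WT tissue P4ha1 came first with 8.40 ± 1.06 CPM per kilobase, followed by P4ha2 with 4.72 ± 0.691 and Lox with 3.12 ± 1.68. This order rests on the length used. Per kilobase of the longest transcript P4ha2 had 9.63 ± 1.41 and P4ha1 8.55 ± 1.08, with overlap. Plod1 with 3.87 ± 1.31 and Plod2 with 3.17 ± 0.611 then stood before Lox with 3.14 ± 1.69. In ligated WT tissue Lox came first with 18.9 ± 4.52 CPM per kilobase, above P4ha1 with 10.6 ± 2.50 and Loxl2 with 9.72 ± 1.43. The libraries of Lox were all above those of P4ha1, and P4ha1 and Loxl2 overlapped. With the longest transcript Lox was again first, at 19.1 ± 4.55, while P4ha2 with 10.5 ± 0.742 lay next to P4ha1 with 10.8 ± 2.54 and Loxl2 with 9.89 ± 1.46, and these 3 overlapped. P4ha3 was last in naive WT, at 0.597 ± 0.0721, and Loxl4 last in ligated WT, at 1.03 ± 0.160. In naive CybbKO tissue Lox, with 1.46 ± 0.0919, was sixth, behind P4ha1, P4ha2, Plod1, Plod2 and Loxl2, and Loxl4 (0.468 ± 0.232) and P4ha3 (0.482 ± 0.167) were lowest, with overlap. In ligated CybbKO tissue Lox came first with 24.97 ± 15.2, followed by Loxl2 with 12.5 ± 5.84 and P4ha1 with 10.9 ± 3.74. These 3 overlapped. With the longest transcript Lox was again sixth in naive and first in ligated CybbKO tissue, while Plod2 with 11.2 ± 6.60 stood next to P4ha1 with 11.1 ± 3.80 in the latter.

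The single libraries decided several WT calls. All 3 WT calls were lost without naive WT replicate 1 or 2 or without ligated WT replicate 2 or 3, and only Lox was left without ligated WT replicate 1. The WT log2 fold change of Lox stayed between 2.38 and 3.14 over the 12 fits that each left out 1 library, that of Loxl2 between 1.61 and 2.03, and that of P4ha3 between 1.60 and 1.97. P4ha3 also lost its WT call without naive WT replicate 3, naive CybbKO replicate 1 or 3, or ligated CybbKO replicate 1 or 3. Without naive WT replicate 3, which was the highest of its group for 7 of the 10 genes, Loxl1 and Plod1 were called in WT. Without ligated CybbKO replicate 2, 5 genes were called in WT, with Loxl1 and Plod2 added. In CybbKO, 6 or 7 genes were called in each of these fits, and Plod1 was lost without any 1 of the other CybbKO libraries (naive replicates 1 to 3, ligated replicates 1 and 3). Without naive CybbKO replicate 1 Loxl4 was called in its place (log2 1.40).

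Between genotypes, none of the 10 differed past the threshold. In ligated tissue 0 were called by edgeR or DESeq2, beside 0.00665% and 0.0896% of tested genes. At an unadjusted p under 0.05 there were 0 in edgeR, beside 3.34%, and 1 in DESeq2, beside 3.19%. The log2 differences of CybbKO minus WT had a median of 0.24, beside 0.01 over all genes, and 9 of 10 were above 0, beside 53.4%. The 10 fibroblast markers had a median of 0.22 (9 above 0). The 9 fibrillar collagen genes and the 9 monocyte and macrophage markers had 0.39 and 0.54, all above 0. The 10 markers of oral epithelium had -0.06, with 4 above 0. None of these lists held a call, and the part of these cells was not tested. P4ha3, the 1 member under 0.05 in DESeq2, had the largest difference of the 10, 0.88 (95% interval -0.003 to 1.76, exact permutation p = 0.4). Lox differed by 0.40 (-0.64 to 1.44) and Loxl2 by 0.37 (-0.40 to 1.14). With 1 library left out Lox ran from 0.12 to 0.83, Loxl2 from 0.13 to 0.71, Plod2 from 0.14 to 0.85 and P4ha3 from 0.62 to 1.26, each highest without ligated CybbKO replicate 2, the library that stood apart from its group. All 10 genes overlapped between the ligated groups, beside 5% of tested genes higher and 2.84% lower without overlap. Intervals of this width leave room for differences of more than 2-fold for Lox, Loxl2, P4ha3 and Plod2.

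In naive tissue 0 were called by edgeR or DESeq2, beside 0.00665% and 0.011% of tested genes. At an unadjusted p under 0.05 there were 0 in edgeR, beside 2.03%, and 3 in DESeq2, beside 2.36%, namely Lox, Loxl1 and Loxl4. In the libraries labelled CybbKO 8 of 10 were lower, with a median log2 difference of -0.42 beside 0.00, and 50.5% of tested genes were above 0. All 5 lysyl oxidases were among the 8. Lox differed by -1.09 (95% interval -2.18 to 0.0036, exact permutation p = 0.1), and its naive CybbKO libraries were all below the naive WT ones. It was the only gene of the 10 without overlap, beside 3.03% of tested genes lower and 2.08% higher in this way. Loxl1 differed by -0.80 (-1.66 to 0.06) and Loxl4 by -0.73 (-1.49 to 0.02), with overlap. P4ha1 and P4ha2 differed by 0.05 (-0.50 to 0.61) and 0.03 (-0.31 to 0.36). Without naive WT replicate 3, the library with the highest gland markers, the difference was -0.55 for Lox, -0.26 for Loxl1 and -0.41 for Loxl4, and over all libraries left out in turn the 3 genes reached -1.32, -1.12 and -1.21 at the lowest. All 10 fibroblast markers were lower in the naive libraries labelled CybbKO as well (median log2 difference -0.47), and the 9 fibrillar collagen genes had a median of -0.67, with none of either list called. The part of these cells in the difference was not tested.

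The ligature response itself did not differ past the threshold between genotypes. The interaction had 0 calls among the 10, beside 0% of tested genes, by edgeR and by DESeq2. At an unadjusted p under 0.05 there were 0 in edgeR, beside 2.27%, and 3 in DESeq2, beside 2.46%, namely Lox, Loxl2 and P4ha3. Its median on the log2 scale was 0.75 beside 0.02, and 9 of 10 were above 0, beside 53.3%. Other lists moved too, with a median of 0.59 for the 10 fibroblast markers (9 above 0) and 0.97 for the 9 fibrillar collagen genes (8 above 0). The 9 neutrophil and the 9 monocyte and macrophage markers had 0.89 and 0.85, all above 0. The 10 markers of oral epithelium had -0.08, with 2 above 0. None of these lists held a call, and the part of these cells was not tested. The interaction was 1.48 for Lox (95% interval -0.02 to 2.99), 1.08 for Loxl2 (-0.02 to 2.18) and 1.19 for P4ha3 (-0.10 to 2.48). The same libraries enter all 3 genotype comparisons, so their values are not independent of each other.

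**Figure D4:**
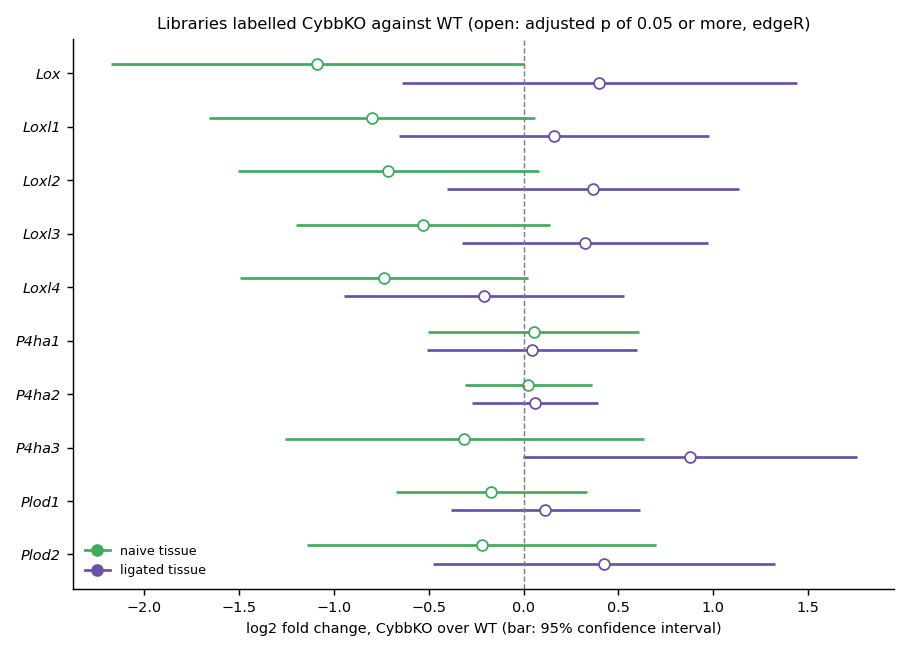
Log2 difference of each enzyme gene between libraries labelled CybbKO and WT on the horizontal axis, in naive (green) and ligated tissue (purple), with 95% confidence intervals from edgeR. All 20 points are open, since none passed an adjusted p of 0.05, and the 5 lysyl oxidases lie below 0 in naive tissue, with Lox at -1.09.

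Fibroblasts are the main source of fibrillar collagen, and their markers moved with ligature too. Of 10 fibroblast markers 1, Thy1, was called higher in WT and 9 in CybbKO, beside 2.31% and 9.95% of tested genes, with median log2 fold changes of 0.93 and 1.49. In WT 8 had an unadjusted edgeR p under 0.05, beside 19.9%, and DESeq2 called 5, beside 5.66% called higher. Their summed level was 862 to 1202 CPM in naive and 1348 to 1901 CPM in ligated WT, and 843 to 866 CPM in naive and 1127 to 2545 CPM in ligated CybbKO libraries. None of the 10 was at 0. Dcn and Lum, small proteoglycans of the matrix, were the largest parts of the sum, with 563 and 325 CPM on average over the 12 libraries. The sum was higher in ligated tissue by 0.64 (log2) in WT and 1.13 in CybbKO, less than the medians of the 10 markers, so ratios to the sum run higher than ratios to a typical marker would. Divided by that sum, Lox was higher in ligated tissue by 2.06 on the log2 scale in WT and 2.67 in CybbKO, Loxl2 by 1.16 and 1.63, and P4ha3 by 1.12 and 1.71. These 3 ratios did not overlap between ligated and naive libraries in either genotype, beside 2.71% of tested genes higher in this way in WT and 2.92% in CybbKO. The ratio of P4ha2 fell by 0.51 in WT and by 0.98 in CybbKO, also without overlap, as did the ratios of 49.1% and 60.9% of tested genes. In CybbKO the ratio of P4ha1 fell by 0.85 and that of Loxl1 was higher by 1.30, and in WT the ratio of Plod2 was higher by 0.75, each without overlap in that genotype and with overlap in the other. The ratios of Loxl3, Loxl4 and Plod1 overlapped in both. In ligated CybbKO replicate 2 the fibroblast sum was 1127 CPM, beside 2545 and 2282 CPM in the other two, and the epithelial sum 112579 CPM, beside 71941 and 64987 CPM. The part of these cell types in the changes of the enzyme genes was not tested beyond this ratio.

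**Figure D5:**
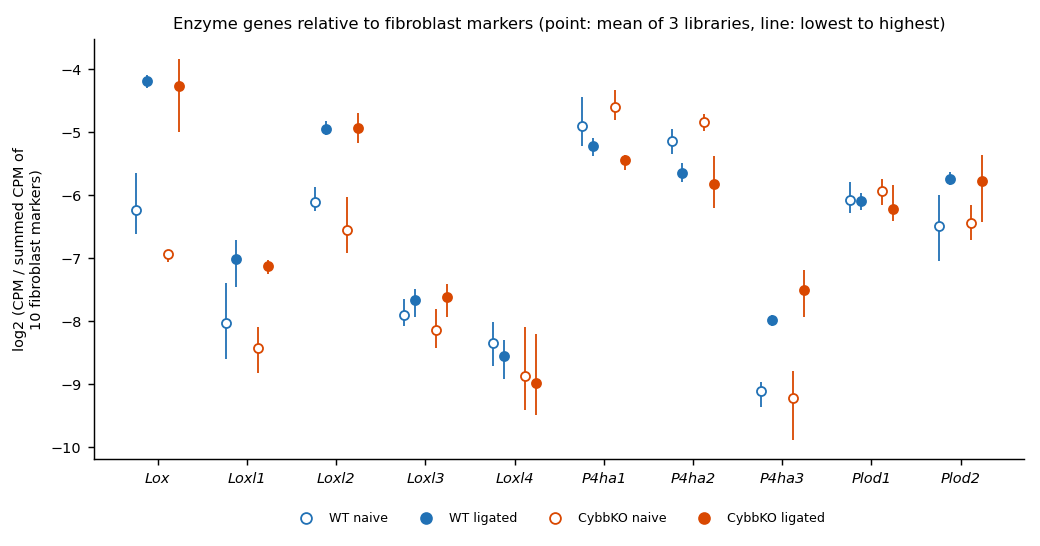
Log2 ratio of each enzyme gene to the summed CPM of 10 fibroblast markers on the vertical axis, for WT (blue) and CybbKO (orange), naive (open) and ligated (filled). Points are means of 3 libraries and lines run from the lowest to the highest library. Ratios of Lox, Loxl2 and P4ha3 are higher and those of P4ha2 lower in ligated tissue, without overlap in either genotype.

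Other cell types changed as well. Of 9 neutrophil markers 1 was called higher in WT and 9 in CybbKO, beside 2.31% and 9.95% of tested genes. In WT 6 of the 9 had an unadjusted edgeR p under 0.05, beside 19.9%, and DESeq2 called 5, beside 5.66% called higher. The sums were 382 to 855 CPM in naive and 1351 to 3785 CPM in ligated WT libraries, and 826 to 934 and 2509 to 11671 CPM in CybbKO. Of 9 monocyte and macrophage markers 2 and 9 were called higher, and of 8 endothelial markers 4 and 7. Osteoblasts also make collagen, and of 7 osteoblast and bone markers 0 were called in WT (3 at an unadjusted edgeR p under 0.05, 1 by DESeq2) and 3 higher in CybbKO, with 4 called on average over both genotypes, beside 14.7%. Their sums were 61.9 to 81.7 CPM in naive and 58.8 to 182 CPM in ligated WT libraries, and 45.3 to 53.3 and 64.2 to 149.7 CPM in CybbKO. Of 5 tested osteoclast markers 1 was called higher in WT, 3 in CybbKO and 5 on average. Mmp9 is in both the osteoclast and the neutrophil list, so it is counted in each. Their part in the enzyme genes was not tested.

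Many genes of the enzymes' substrates rose too. Among 9 fibrillar collagen genes, 6 were called higher in WT and 7 in CybbKO, beside 2.31% and 9.95% of tested genes, with medians of 1.63 and 2.67 (log2). Col11a1, a minor fibrillar chain, had the largest change of the list (log2 2.81 and 3.94), and Col3a1, the highest of the list in mean CPM, had 2.02 and 2.96. Col1a1 was called in CybbKO (log2 2.58, edgeR adjusted p = 0.00327), and its 1.47 in WT was not (edgeR adjusted p = 0.0685). Of 14 genes of the elastic fibre and its partners, 6 and 11 were called higher against the same shares, with medians of 1.26 and 1.83. Eln, elastin, which lysyl oxidases crosslink, had log2 fold changes of 3.22 and 3.09, and Fbn1 and Fbn2, the fibrillins of its microfibrils, 2.42 and 2.84 in WT and 3.20 and 3.80 in CybbKO. Postn, periostin, an abundant matricellular protein, had 1.64 and 2.43.

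Among 16 other enzymes and chaperones of collagen synthesis 0 were called in WT and 4 in CybbKO, beside 2.31% and 9.95% of tested genes called higher, with medians of 0.18 and 0.29. Averaged over both genotypes 6 were called, all higher, beside 14.7%, and 13 of the 16 were above 0. In WT 4 of the 16 had an unadjusted edgeR p under 0.05, beside 19.9% of tested genes, and DESeq2 called 3, beside 5.66% called higher. The 4 called in CybbKO were Fkbp14 (log2 2.11) and Fkbp10 (1.21), prolyl isomerases of the endoplasmic reticulum, P3h1 (1.53), a prolyl 3-hydroxylase, and Serpinh1 (1.11), the collagen chaperone HSP47. Ppib, an abundant prolyl isomerase, had -0.01 and 0.06. Of 10 genes for procollagen processing and transglutaminases 9 were tested, with 1 called higher in WT and 5 in CybbKO. Averaged over both genotypes 6 were called higher and 1 lower, beside 14.7% and 9.66% of tested genes. The lower one, Pcolce2, a procollagen C-proteinase enhancer named after its values were seen, had log2 fold changes of -1.58 in WT and -1.06 in CybbKO, not called in either alone. Adamts2, the main procollagen N-proteinase, was called in both (log2 1.51 and 2.34), and Adamts14, Adamts3 and Pcolce were among the others called in CybbKO (2.64, 2.20 and 1.45). Adamts3 was scarce, at 0.547 CPM on average over the 12 libraries. Bmp1, the procollagen C-proteinase, had 0.15 and 0.42 and was not called.

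The genes whose pattern over the 12 libraries was most like each enzyme were ranked by Pearson's r of log2 CPM. Lox was closest to Adamts9 (r = 0.996), Col3a1 (0.994) and Col5a2 (0.991), and Loxl2 to Adamts2 (0.994), Col3a1 (0.991) and Col6a3 (0.991). Loxl1 was closest to C1qtnf6 (0.988), P4ha3 to Vash2 (0.987), Plod2 to Wsb1 (0.988), Plod1 to Arsa (0.990) and Loxl3 to Arhgef25 (0.986). P4ha1 stood nearest to Glt8d1 (0.968), Loxl4 to Cpt1c (0.945) and P4ha2 to Sirpa (0.911). Among the members, Lox and Loxl2 were the most alike pair (0.987), and Lox with P4ha1 had 0.614. All points share the 12 libraries and the ligature contrast, so these r values are descriptions over 12 libraries.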

How the data were processed

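Gingival RNA was sequenced in 12 libraries, 3 per group, grouped from the sample labels. The deposited values are raw counts per gene by Ensembl identifier, without normalization. Per the methods, reads of stranded mRNA libraries were aligned with STAR to GRCm38 and counted by strand with featureCounts, while the submitters' processing notes name HTSeq 0.10.0 (and FastQC 0.10.1), so the counting tool is not settled. A read that fits several genes may have been dropped or split. Symbols were matched for 21939 of 21965 genes, and 0 columns were left unmapped.

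The 10 members and all gene lists were chosen with earlier results of these data known. All members are named. Of the other lists the counts, up to 4 called genes with the largest fold and the 3 most abundant genes could be named, of which some are printed. The value of 1 listed gene is not reported here. The 3 genes most alike each member were also named in part. Genes were compared in R 4.3.3 with edgeR 4.0.16 (TMM, filterByExpr, quasi-likelihood F test, 1 mean per group over 12 libraries, Benjamini-Hochberg over 15046 genes). The biological coefficient of variation was 0.240. DESeq2, the tool the study's methods name, was run here in version 1.42.0 as an alternative and left between 15326 and 18143 genes with an adjusted p. Single genes were compared by exact permutation of log2(CPM + 0.5). Of the comparisons, only the ligature response in WT was checked on simulated counts. Limits on planted changes recovered and on false calls were set for edgeR alone. P-values measure the spread between libraries, 1 per mouse by the design text. Alternatives were DESeq2's size factors, scaling by totals alone, dropping the low-count filter or asking for 10 counts in each library, a fit limited to the 6 libraries of a comparison, replicate number as a block, and each library left out. Levels, shares and plots came from Python 3.11.15.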

Additional observations from a re-analysis of the deposited data

How the results depend on the processing

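In the CybbKO ligature response and in the response averaged over both genotypes, between 6 and 8 of the 10 genes were called under each setting run, though not always the same ones. In WT the count of called members went from 3 to 5 in DESeq2 and ran from 0 to 5 as each library was left out, and the count over all genes, 481, went to 1374 in DESeq2 and 271 with the replicate number as a block, with 27 to 900 over the libraries left out. In CybbKO the count over all genes, 1954, ran from 837 to 2949 over the libraries left out. Between genotypes 0 members were called under every setting run. There the count over all genes in ligated tissue went from 1 to 15 in DESeq2, to 0 with only the 6 libraries compared and to between 0 and 2 with a library left out, in naive tissue from 1 to 2 in DESeq2, and for the interaction from 0 to between 0 and 1. The causes were not tested.

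Signs turned with 1 library left out only for small log2 differences. In ligated tissue P4ha1 ran from -0.13 to 0.30, Loxl1 from -0.0899 to 0.41, Plod1 from -0.0135 to 0.27 and P4ha2 from -0.0533 to 0.19. In naive tissue P4ha2 ran from -0.0543 to 0.15, P4ha1 from -0.10 to 0.17 and Plod1 from -0.37 to 0.12. The interaction ran from -0.19 to 0.25 for P4ha1, from -0.0875 to 0.16 for P4ha2 and from -0.00516 to 0.49 for Plod1.

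Same-numbered libraries did not deviate together (correlations of deviations from -0.31 to 0.32), so the numbers were not taken as pairs. With the replicate block 2 members were called in WT, where P4ha3 no longer passed (log2 1.75), and 7 in CybbKO and on average.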

Other observations

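Of 6 genes taken as targets of TGF-beta, 0 were called by edgeR in WT (2 at an unadjusted p under 0.05, beside 19.9% of tested genes, and 1 called by DESeq2, beside 5.66% called higher). In CybbKO 3 were called higher, beside 9.95%, and averaged over both genotypes 4 were called higher by edgeR, beside 14.7%. DESeq2 called 6 on average, in either direction, beside 4520 of at most 18143 genes over all. By edgeR 5 of the 6 had a log2 fold change above 0 on average. The 3 called in CybbKO included Ltbp2, a fibrillin-binding protein of the latent TGF-beta binding family (log2 2.01), and Ccn2, connective tissue growth factor (1.12). Tgfbi, the most abundant of them, had 0.32 in WT and 0.52 in CybbKO and was not called. Of 10 genes for the supply of iron, ascorbate, copper and 2-oxoglutarate, on which these enzymes depend, 0 were called by edgeR in either genotype. At an unadjusted edgeR p under 0.05 there were 1 in WT and 2 in CybbKO, beside 19.9% and 27.7%. DESeq2 called 1 in each, beside 5.66% and 11.7% called higher. With both genotypes averaged edgeR called 1 higher and 0 lower, beside 14.7% and 9.66%. DESeq2 then called 3 in either direction, beside 4520 of at most 18143 genes over all. By edgeR 6 of the 10 were above 0 on average. Idh1, an isocitrate dehydrogenase that makes 2-oxoglutarate, had 0.09 and -0.19, Tfrc, the transferrin receptor, 0.03 and 0.10, and Glud1, glutamate dehydrogenase, -0.22 and -0.20.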
